A study of Mus musculus with 15 samples.

Results

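The genes described here encode the proteins of the cytosolic ribosome, measured in sections of mouse embryos. They were chosen by symbol: every feature whose name starts with Rpl or Rps and a digit, together with Rplp0, Rplp1, Rplp2 and Rpsa, leaving out symbols with -ps (processed pseudogenes named after a parent gene) and the Rps6k kinases. The rule found 92 of 30534 features. Of these, 77 are subunits of the standard ribosome, 46 in the large and 31 in the small subunit, and are called the core set below. The other 15 are 8 paralogs (Rpl22l1, Rpl39l, Rps27l, Rpl10l, Rpl3l, Rpl36al, Rps4l and Rpl7l1), 6 retrocopies or retrocopy-like genes (Rpl37rt, Rps27rt, Rpl6l, Rps12l1, Rps3a2 and Rps3a3) and Rps19bp1, which binds a ribosomal protein but is no subunit. Between 89 and 92 of the 92 had at least 1 count in a library.

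Each library came from a frozen section of a mouse embryo at embryonic day 10, 11 or 12 (E10, E11, E12), with no treatment named. A first set of barcodes is flowed over the tissue in parallel microfluidic channels and a further set at right angles to it, and every spot where 2 channels cross is a pixel of known position, here 10, 25 or 50 µm wide. The 11 transcript libraries fell into 6 groups: E10 at 50 µm (3 libraries), E10 at 25 µm (1), E10 at 10 µm (2), E11 at 25 µm (2), E11 at 10 µm (2) and E12 at 50 µm (1). The labels give neither strain nor embryo identity nor the region under the channels, so p-values measure only the spread between these libraries, which may be technical, and a group can differ from another in the region sampled as well as in stage. Counts over tissue ranged from 1563489 to 11998765 per library, in 829 to 2271 tissue pixels with a median of 843.5 to 11332 counts each. The E10 library at 25 µm was the shallowest, and the E12 library stood apart in a list of 9 red cell genes (haemoglobins and Alas2 among them), which took 8.96% of its counts against 1.49% to 3.28% in the other 10.

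Ribosomal proteins coat and hold the folded ribosomal RNA: the small subunit decodes the messenger RNA and the large subunit joins amino acids. Because the proteins are needed in equal numbers, their genes are usually expressed together, and their messengers begin with a C and a run of pyrimidines through which growth signals set how much of them is translated. Many have left near-identical processed copies elsewhere in the genome, which matters for any count based on short reads.

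Near copies are shown first because the results on Rps3a3 and Rps27 depend on how reads were divided between a parent and its copy. The retrocopy Rps3a3 differs from its parent Rps3a1 at 9 of 795 aligned transcript bases. The following 60 bases (GENCODE M21 transcripts, build GRCm38, read 5′ to 3′ on each transcript's strand) hold 2 of those differences, in capitals. Rps3a1 lies on the minus strand at chr3:86141333-86141392, and Rps3a3 lies on the plus strand at chr13:108670803-108670862, each within a single exon.
Rps3a1: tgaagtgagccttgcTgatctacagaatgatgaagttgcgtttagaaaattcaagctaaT
Rps3a3: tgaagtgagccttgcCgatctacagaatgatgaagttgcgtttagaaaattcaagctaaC

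Rps27 and Rps27rt could not be separated at all over their shared part: all 341 aligned bases were identical. The first 60 coding bases of both, shown with no capitals because none differ, lie within chr3:90213248-90213615 across an intron for Rps27 and at chr9:114982648-114982707 for Rps27rt, both on the minus strand. Rps12 and Rps12l1 were likewise identical over 399 bases. Reads within such stretches can go to either gene, and how they were assigned is not given in the sources used here, so values of these pairs are uncertain.
Rps27: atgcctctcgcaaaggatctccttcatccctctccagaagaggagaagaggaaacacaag
Rps27rt: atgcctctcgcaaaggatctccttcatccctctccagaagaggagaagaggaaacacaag

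Start-site windows, 15 bases on either side of the annotated start (RefSeq, build GRCm38.p6), are shown for members that moved away from the rest of the set. Rps27 (chr3:90213634-90213663, minus strand) and Rpl13 (chr8:123102335-123102364, plus strand) held the pyrimidine motif CTTTC, in capitals. Rpl10a (chr17:28328456-28328485, plus strand), Rps2 (chr17:24720048-24720077, plus strand) and Rpsa (chr9:120127751-120127780, plus strand) held neither it nor CTTTTC.
Rps27: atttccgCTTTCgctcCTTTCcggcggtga
Rpl13: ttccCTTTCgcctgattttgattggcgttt
Rpl10a: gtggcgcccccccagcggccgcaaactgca
Rps2: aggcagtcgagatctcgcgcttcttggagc
Rpsa: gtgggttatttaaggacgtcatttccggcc

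Promoters of 57 of the 77 core genes were in the table used, with 67 start windows. CTTTC on the gene's own strand was found in 16 of these 67 windows (23.9%), against 4.05% of 32851 windows of all promoters. Its reverse complement GAAAG was in 4.48% against 3.60%. The longer CTTTTC, which can share no more than an end base with CTTTC, was in 7.46% against 1.06%. Annotated starts vary by some bases around the true one, so the absence of these letters from a window says nothing about the messenger.

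The core set made up 8.84% to 17.0% of all tissue counts, and the share was higher in the 4 E11 libraries than in each of the E10 and E12 libraries. In the 3 E10 libraries at 50 µm it was 8.84%, 12.3% and 10.3% of counts (mean 10.5% ± 1.77, SD, n = 3). The E10 library at 25 µm had 11.3%, and the E10 libraries at 10 µm had 13.0% and 13.8% (13.4% ± 0.567, n = 2). The E11 libraries had 17.0% and 13.9% at 25 µm (15.5% ± 2.19, n = 2) and 14.5% and 15.1% at 10 µm (14.8% ± 0.403, n = 2), and the E12 library had 9.96%. The ranges of E10 (8.84% to 13.8%) and E11 (13.9% to 17.0%) lay next to each other without overlap. With named -ps counts added to their parents they overlapped: E11 at 25 µm replicate 2 had 16.1%, below E10 at 10 µm replicate 2 with 16.6%. At E10 the 10 µm libraries lay above the others. The share is a description with no test: it sums the members, and the pixel width, depth and section differ with the stage.

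Large and small subunits kept nearly the same proportion throughout. Large subunit genes took 5.33% to 10.6% of counts and small subunit genes 3.51% to 6.42%, and the libraries ranked in the same order by both, apart from E10 at 10 µm replicate 2 and E11 at 25 µm replicate 2, which changed places. The 8 paralogs summed to 0.0768% to 0.135% and the 6 retrocopies to 0.0805% to 0.254%. The 263 named -ps symbols, counted apart, took 1.22% to 3.92% of counts, with both E11 libraries at 10 µm (3.64% and 3.92%) above the rest, and all annotated pseudogenes took 5.98% to 14.0%.

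**Figure D1:**
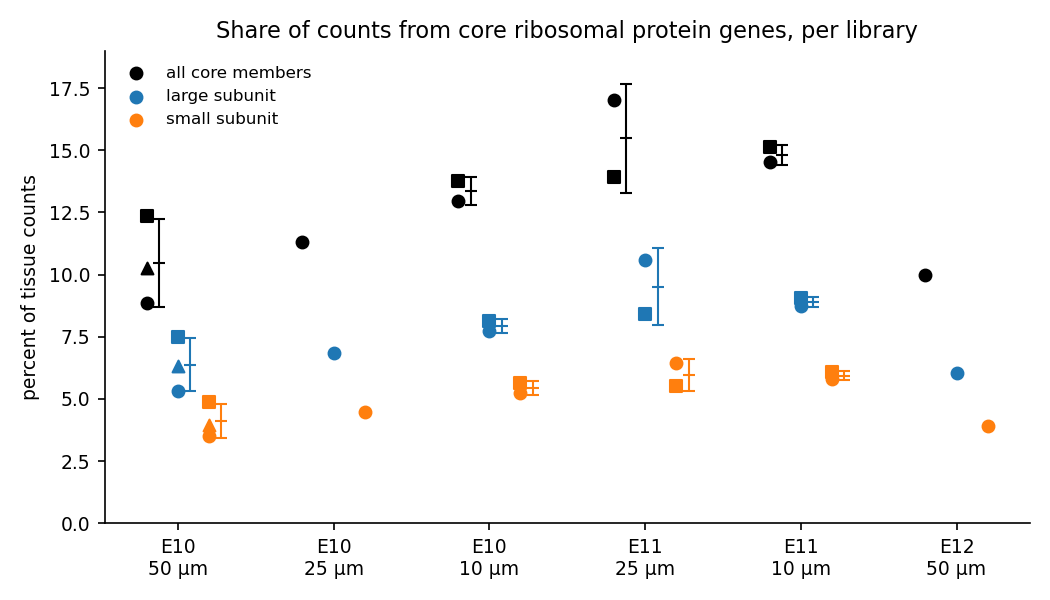
Share of tissue counts (percent, vertical axis) from core ribosomal protein genes and from their large and small subunit genes in each of the 11 libraries, by stage and pixel width (horizontal axis); each marker is a library and its shape is the replicate. The 4 E11 libraries lie between 13.9% and 17.0% for the whole core set, the E12 library at 9.96%.

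Within a section the share was patterned in space. Over pixels its median was 8.86% to 16.3% by library, the 5th percentile 6.82% to 11.6% and the 95th 10.2% to 20.1%. The variance between pixels was 1.96 to 11.2 times that of binomial counting at the pixels' own depths, with a median of 9.48 over libraries. Moran's I (the likeness of a pixel to its 4 grid neighbours, 0 when there is none) was 0.243 to 0.650, with a median of 0.550. The E10 library at 25 µm, the shallowest, had the lowest value of both measures, and E11 at 25 µm replicate 1 the highest Moran's I.

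Large and small subunit genes shared the pattern. Moran's I was 0.167 to 0.583 for the large and 0.128 to 0.525 for the small subunit share, and across pixels the 2 shares correlated at r = 0.107 to 0.742 (over all tissue pixels of a library, which share the denominator). Other values moved with the share. Grid rows and columns, which are the barcode channels, accounted for 26.6% to 72.6% of its variance. It correlated with the pixel's log2 depth at r = 0.049 to 0.562, with the share of pseudogenes at r = 0.349 to 0.815 and with the red cell list at r = -0.635 to 0.006, each over the tissue pixels of 1 library. In E11 at 25 µm replicate 1 the share was 18.1% in the deepest 25% of pixels and 14.2% in the shallowest 25%. The part of channels and depth in the pattern was not tested beyond the adjusted values given with each tissue below.

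**Figure D2:**
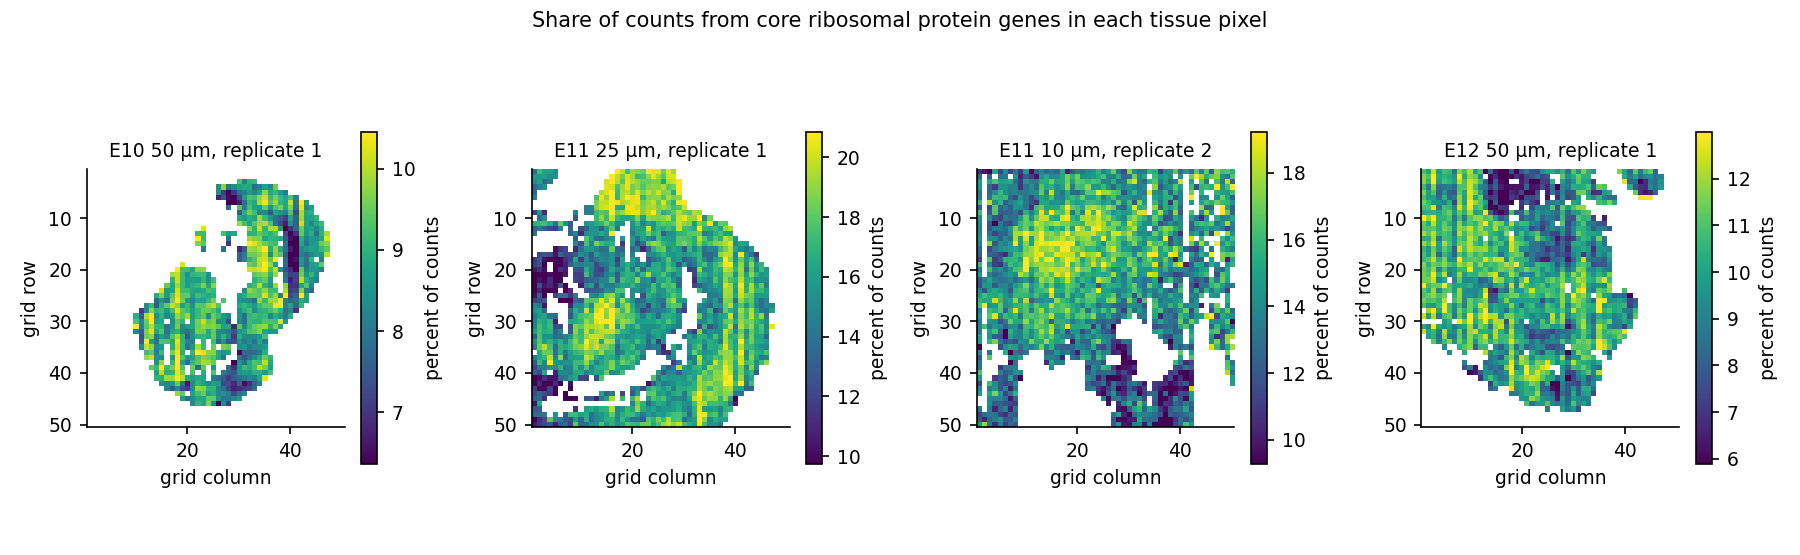
Percent of counts from core ribosomal protein genes in each tissue pixel (colour, scaled within each panel) over grid column and grid row for E10 at 50 µm replicate 1, E11 at 25 µm replicate 1, E11 at 10 µm replicate 2 and E12 at 50 µm; blank pixels are outside tissue. High and low pixels form patches, and straight stripes follow rows and columns.

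Single genes showed less of this structure. Moran's I of the log2 level was highest on average for Rpl13, a large subunit protein (0.188 over 11 libraries), Rpl41, the shortest ribosomal protein (0.185), and Rpl4, which lines the exit tunnel (0.140). It was lowest for Rps18 (0.010, over the 7 libraries where it was seen in at least 5% of pixels), Rps4l (0.016) and Rps3a3 (0.021, 10 libraries). The first 3 genes had 217299 to 381090 tissue counts over all libraries and the last 3 had 1680 to 4369. How far counting noise set these values was not tested. Levels were compared per kilobase of transcript: in counts per 1000000 tissue counts (CPM) per kilobase, Rpl41 (median over libraries 8764), Rpl13 (4866) and Rplp1 (4499) led the 77, while Rpl29 (260.4) and Rps18 (45.2) ranked 76 and 77. Rps18, a small subunit protein at the decoding head, had 16.7 to 39.7 CPM by library, far under its partners. Its annotated near copy Rps18-ps1 differs at 8 of 459 bases, and adding Rps18-ps counts left the sum at 17.0 to 39.7 CPM. Reads left uncounted or assigned to features of other names would not enter this sum. Whether the low value reflects the tissue or the counting of reads was not tested.

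Tissue differences were measured between marker-rich pixels and comparison pixels of the same section. Rich pixels were the top 10% of tissue pixels by the summed counts of a marker list, with at least 2 of its genes seen, and comparison pixels those at or under the library's median. Libraries entered where the list was itself patterned (Moran's I of at least 0.1, at least 30 rich pixels). A pixel can hold several cells, so these are regions led by their marker genes. Because the same list counts defined both kinds of pixel, a gap between them was fixed in advance. The values below give only its size. Red cell genes had a mean of 128221 CPM in rich against 10272 in comparison pixels (11 libraries), heart muscle genes such as Myh6 and Myl7 22864 against 189 (9), liver genes such as Afp and Apoa1 13536 against 117 (4), neuron genes such as Tubb3 and Stmn2 4971 against 328 (10), neural progenitor genes such as Sox2 and Fabp7 2976 against 419 (10), and mesenchyme genes such as Col1a1 and Col3a1 5216 against 412 (11). In sums over pixels, fewer cells of a type and less RNA per cell cannot be told apart.

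Genes were then tested by edgeR's quasi-likelihood method with the library as a block, in 2 fits. The level fit scales libraries by trimmed mean (TMM) and asks whether a gene was higher or lower relative to most genes. The set fit scales by the summed core counts and asks whether a member departed from the rest of the set. In both, p-values were adjusted by Benjamini-Hochberg over all genes tested, with 0.05 as the threshold.

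Neuron-rich pixels had less of the set. Their core share was lower than that of comparison pixels in 10 of 10 libraries, with differences of -1.8 to -0.459 points (-1.04 ± 0.419, SD, n = 10). In the level fit 42 of the 77 core genes fell and 0 rose (54.5%, where 18.1% of all 10346 genes tested fell). The median log2 fold change was -0.12 over the core set, with 73 of 77 below 0, against -0.05 over all genes. Of the large subunit genes 24 of 46 fell and of the small subunit genes 18 of 31, a difference that was not tested. After adjustment for grid row and column the share difference shrank to -0.388 ± 0.454 points and was above 0 in 2 of 10 libraries. Neuron-rich pixels were deeper in 7 of 10, and against depth-matched pixels the difference was -1.01 ± 0.411 points.

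Relative to the set, 6 core genes were higher and 3 lower in neuron-rich pixels, where 32.7% of all genes passed in either direction. The count was 3 without E10 at 50 µm replicate 3 and 5 without the E12 library. Rpl10a, which forms the mobile L1 stalk where spent transfer RNA leaves, had 621 to 2578 CPM (median 1239) in rich and 847 to 3173 (median 1532) in comparison pixels, and was lower in 10 of 10 libraries. Its log2 fold change was -0.31 ± 0.04 (SE) in level and -0.17 ± 0.04 relative to the set (edgeR adjusted p = 0.00122). Rplp1, an acidic protein of the stalk that recruits elongation factors, was lower relative to the set in 10 of 10 libraries (-0.14 ± 0.04, edgeR adjusted p = 0.00445). Rpl13 was lower by less (-0.10 ± 0.04, adjusted p = 0.0386), in 7 of 10 libraries, and that call was lost in 8 of 14 alternatives.

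The 6 core genes above the set were 4 of the small and 2 of the large subunit, the latter Rpl27 and Rpl31 (calls kept in 6 and 11 of 14 alternatives). Rps27, a zinc finger protein of the small subunit, had 746 to 1943 CPM in rich and 736 to 1778 in comparison pixels, so that its level did not pass (0.04 ± 0.05, adjusted p = 0.572) where most of the set fell. Relative to the set it was higher in 10 of 10 libraries (0.18 ± 0.04, edgeR adjusted p = 0.00163), and its copy Rps27rt was higher in 9 of 10 (0.17 ± 0.06, adjusted p = 0.0406). The Rps27rt call held in only 6 of 14 alternatives: it was lost with no filter, with depth-matched pixels and without E10 at 50 µm replicate 2 or 3, E10 at 10 µm replicate 1, E11 at 25 µm replicate 2, E11 at 10 µm replicate 1 or the E12 library (adjusted p = 0.0586 to 0.158). Rps28, at the messenger exit of the small subunit, was higher relative to the set by 0.15 ± 0.05 (edgeR adjusted p = 0.0184) in 7 of 10 libraries. This call was kept in 10 of 14 alternatives. It was lost with the top 5% of pixels (adjusted p = 0.152) and with depth-matched pixels (0.0537). Leaving out E10 at 50 µm replicate 3 (0.0565) or E11 at 25 µm replicate 2 (0.0536) also lost it. The calls of Rpl10a, Rplp1 and Rps27 held in 14 of 14 alternatives each.

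Liver-rich pixels had more of the set, except at E12. The share was 18.5% in rich against 16.6% in comparison pixels in E11 at 25 µm replicate 1, and 16.5% against 14.0% in E11 at 10 µm replicate 2. In E11 at 25 µm replicate 2 it was 0.980 points higher in rich pixels. In the E12 library it was 9.35% against 10.2%. The mean difference was 1.14 ± 1.44 points (SD, n = 4). Adjusted for grid row and column it was 0.902 ± 1.37 points, and against depth-matched pixels 0.785 ± 1.21 points. In the E12 library the red cell list took 18.9% of counts in liver-rich and 5.49% in comparison pixels, and 33.1% of its liver-rich pixels were also blood-rich. With the red cell list left out of the total, the share was higher in liver-rich pixels in 4 of 4 libraries (1.53 ± 0.707 points), by 0.787 points at E12.

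In the level fit 31 of 77 core genes rose in liver-rich pixels and 0 fell (40.3%, where 10.3% of all 9884 genes rose). All 77 had a positive log2 fold change, with a median of 0.25 against 0.02 over all genes. The largest were Rplp1 (0.59 ± 0.10, edgeR adjusted p = 0.000785), Rps12, a small subunit protein (0.46 ± 0.10, adjusted p = 0.00433), and Rpl36, a large subunit protein (0.42 ± 0.09, adjusted p = 0.00606). The count of 31 rested on the 2 E11 libraries at 25 µm: it was 3 without replicate 1, 4 without replicate 2 and 18 without E11 at 10 µm replicate 2. It was 15 against comparison pixels matched on depth, which was higher in liver-rich pixels in 4 of 4 libraries, and 5 with no filter on low counts.

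Rplp1 also departed from the set in liver-rich pixels. It had 5967 CPM in rich against 4803 in comparison pixels and 2579 against 2077 in the 2 E11 libraries at 25 µm, 4079 against 2789 at 10 µm and 2296 against 1532 at E12. It was higher in each, by 0.35 ± 0.09 relative to the set (edgeR adjusted p = 0.0181), and this call held in 8 of 8 alternatives. In neuron-rich pixels the same gene was below the set, as given above. It was the only core gene of 77 to pass in the set fit for liver-rich pixels, where 24.1% of all genes passed; without E11 at 10 µm replicate 2 there were 2.

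In blood-rich pixels the core share was lower in 11 of 11 libraries (-1.21 ± 1.05 points, SD, n = 11). The red cell list took a mean of 12.8% of counts there and 1.03% in comparison pixels. With the list left out of the total it was higher in 10 of 11 (0.380 ± 0.373 points). With all counts, the difference was -1.23 ± 0.901 points adjusted for grid row and column, and -0.952 ± 0.930 against depth-matched pixels. In the level fit, whose TMM scaling trims such dominant genes, 9 of 77 core genes rose and 0 fell (11.7%, where 6.69% of all 9635 genes rose), with a median of 0.04 against -0.04 over all genes. With no filter on low counts the direction turned: 0 rose and 2 fell. Without E10 at 50 µm replicate 2 or E10 at 10 µm replicate 1, 5 rose.

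Against the set, 3 core genes were higher and 3 lower in blood-rich pixels, where 16.8% of all genes passed. The 6 calls became 3 without E10 at 50 µm replicate 2 or either E10 library at 10 µm. Rpsa, a small subunit protein that is also known as the laminin receptor, was higher relative to the set in 11 of 11 libraries (0.13 ± 0.03, edgeR adjusted p = 0.00767). Rplp0, the base of the stalk, was higher in 9 of 11 (0.12 ± 0.04, edgeR adjusted p = 0.0312), a call kept in 9 of 15 alternatives. Rps27 was lower in 11 of 11 (-0.15 ± 0.04, edgeR adjusted p = 0.00579): it took a median of 0.786% of the set in rich and 0.924% in comparison pixels. This is the reverse of its place in neuron-rich pixels. Rpl11, which carries the 5S RNA with Rpl5, and the retrocopy Rps27rt, outside the core set, were also lower (-0.13 and -0.18), but these calls held in only 5 and 2 of 15 alternatives. The other core gene below the set was Rps9 (-0.11 ± 0.04, edgeR adjusted p = 0.0438), a call kept in 4 of 15 alternatives.

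**Figure D3:**
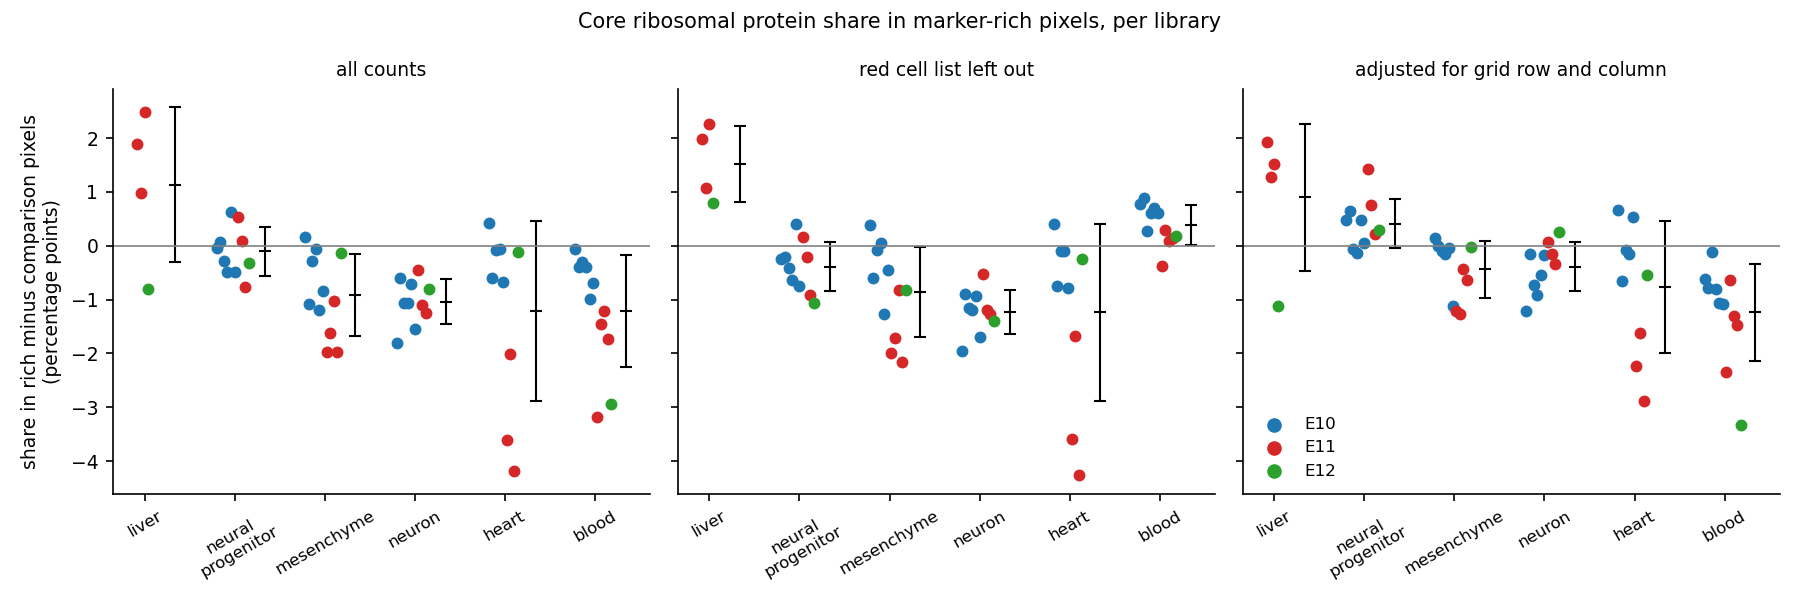
Difference in core share between marker-rich and comparison pixels (percentage points, vertical axis) for 6 marker lists, with all counts, with the red cell list left out, and adjusted for grid row and column; each point is a library coloured by stage and the black bar is the mean with its SD. Blood-rich pixels lie below 0 in 11 of 11 libraries with all counts and above 0 in 10 of 11 without the red cell list.

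Heart-rich pixels split by stage. The share differed from that of comparison pixels by -0.681 to 0.424 points in the 5 E10 libraries, by -4.18 to -2.0 points in the 3 E11 libraries and by -0.122 points at E12 (-1.21 ± 1.67 points in all, SD, n = 9). In E11 at 10 µm replicate 2 it was 11.5% against 15.7%, and in E11 at 25 µm replicate 1 13.7% against 17.3%. In those 2 libraries heart genes took 51479 and 51576 CPM of the rich pixels, and in the 5 E10 libraries 4596 to 16664. Heart-rich pixels were shallower than comparison pixels in 8 of 9 libraries, and in E11 at 25 µm replicate 1 the median was 1582 against 3248.5 counts. Leaving the heart list out of the total kept the mean below 0 (-0.930 ± 1.43 points), as did comparison pixels matched on depth (-0.825 ± 1.27 points). Adjusted for grid row and column the mean was -0.772 ± 1.22 points.

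No core gene passed in heart-rich pixels by edgeR, in the level fit (5 of 77 had an unadjusted p under 0.05; 12.1% of all 10529 genes passed) or in the set fit (3 of 77; 11% of all genes). The median log2 fold change of the core set was -0.07, with 71 of 77 below 0, against -0.05 over all genes. With no filter on low counts 11 core genes were called lower, and with RLE size factors 1 was. In level 1 was called without E10 at 10 µm replicate 1 or E11 at 25 µm replicate 2, and against the set 1 without the former. The heart paralog Rpl3l, known from adult heart and skeletal muscle, had 0 to 3 counts in any library and was not tested.

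Mesenchyme-rich pixels had a lower share in 10 of 11 libraries (-0.914 ± 0.759 points, SD, n = 11). They were also shallower in 10 of 11, and against depth-matched pixels the difference was -0.444 ± 0.506 points, lower in 8 of 11. Adjusted for grid row and column it was -0.441 ± 0.531 points and above 0 in 2 of 11. In the level fit 17 of 77 core genes fell and 0 rose (22.1%, where 9.81% of all 9034 genes fell), with a median of -0.12 and 75 of 77 below 0, against -0.04 over all genes. Only 1 core gene was called against depth-matched pixels, and 75 with no filter on low counts.

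Rps2, which lines the messenger entry of the small subunit, fell in level, a call that was lost against depth-matched pixels. It had 628 to 1918 CPM (median 1541) in mesenchyme-rich and 798 to 2654 (median 1589) in comparison pixels, and was lower in 11 of 11 libraries in level (-0.29 ± 0.06, edgeR adjusted p = 0.000421). It was lower in 11 of 11 relative to the set as well (-0.18 ± 0.05, adjusted p = 0.00606). Against depth-matched pixels neither call was kept: the level change was -0.17 ± 0.06 (edgeR adjusted p = 0.0614) and the change relative to the set -0.11 ± 0.06 (adjusted p = 0.248). Rpl10, a late-joining protein next to the catalytic centre, was higher relative to the set in 11 of 11 libraries (0.16 ± 0.04, edgeR adjusted p = 0.00779), a call also lost against depth-matched pixels (adjusted p = 0.121). In level it did not pass (0.06, adjusted p = 0.518). In the set fit 18.3% of all genes passed, against 3 of 77 here, and with depth-matched pixels 1 core gene did. Without the E12 library 6 did.

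Neural progenitor-rich pixels hardly differed from comparison pixels in the summed share: it was higher in 4 of 10 libraries and lower in 6 (-0.106 ± 0.448 points, SD, n = 10). After adjustment for grid row and column it was higher in 8 of 10 (0.411 ± 0.461 points). Progenitor-rich pixels were deeper in 9 of 10 libraries, and against depth-matched pixels the share was higher in only 1 of 10 (-0.263 ± 0.458 points). In the level fit 5 of 77 core genes fell (6.49%, where 9.01% of all 10113 genes fell), among them Rpl36 (-0.20 ± 0.06, edgeR adjusted p = 0.0179), Rpl4, Rpl28 and Rps20. With no filter on low counts 28 fell, and that setting moved the median of all genes to -0.21. The 5 calls became 3 without E10 at 50 µm replicate 1 or 2, the E10 library at 25 µm, E10 at 10 µm replicate 2 or E11 at 25 µm replicate 1. They became 1 without E11 at 25 µm replicate 2 or E11 at 10 µm replicate 1, and 8 without the E12 library. Against the set Rpl36 was lower (-0.17 ± 0.05, adjusted p = 0.0269) and Rps27 higher (0.14 ± 0.04, adjusted p = 0.0344, 9 of 10 libraries), where 16.6% of all genes passed. These calls were kept in 10 and 5 of 14 alternatives. No core gene passed there with depth-matched pixels, with the top 5% of pixels, or without either E11 library at 25 µm, and 1 did without E10 at 10 µm replicate 2 or E11 at 10 µm replicate 1.

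**Figure D4:**
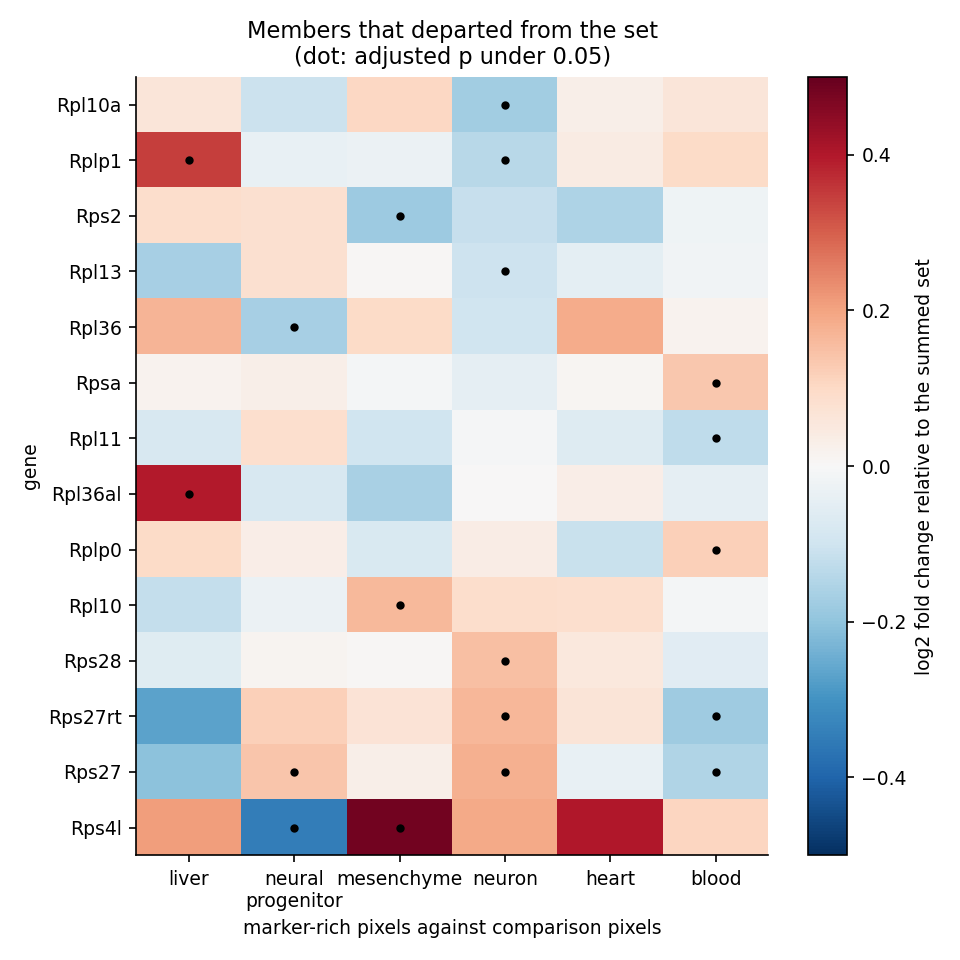
Log2 fold change relative to the summed core set (colour) of the members named for any marker-rich pixel set (rows) in the 6 pixel sets (columns); a dot marks an adjusted p under 0.05. Rps27 is above the set in neuron-rich (0.18) and below it in blood-rich pixels (-0.15), and Rplp1 is above it in liver-rich (0.35) and below it in neuron-rich pixels (-0.14).

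Among the paralogs Rps4l stood out by its place. It is the autosomal relative of the X-linked Rps4x, 80.1% identical to it over 797 aligned transcript positions. GENCODE M21 types it as a transcribed processed pseudogene, so whether its counts stand for a protein is unknown here. It had 42.7 to 98.5 CPM (median 71.3) in mesenchyme-rich and 42.5 to 74.0 (median 48.8) in comparison pixels, and relative to the set it was higher in 11 of 11 libraries (0.48 ± 0.12, edgeR adjusted p = 0.00288, kept in 15 of 15 alternatives). In neural progenitor-rich pixels it was lower relative to the set in 9 of 10 libraries (-0.35 ± 0.10, edgeR adjusted p = 0.0228). This call was kept in 9 of 14 alternatives. It was lost with no filter (adjusted p = 0.0743), the top 5% of pixels (0.253) or depth-matched pixels (0.220). Leaving out either E11 library at 25 µm also lost it (0.0564 and 0.0587). In level Rps4l rose in mesenchyme-rich pixels (0.39 ± 0.12, edgeR adjusted p = 0.0151, kept in 11 of 16 alternatives). That call was lost with no filter (adjusted p = 0.493), the top 5% of pixels (0.125) or depth-matched pixels (0.0536). Leaving out a single E10 library could also lose it (0.0541 and 0.0569). In progenitor-rich pixels Rps4l fell in level (-0.36 ± 0.10, adjusted p = 0.0182, kept in 13 of 15). Rps4x in the same pixels had log2 fold changes in level of -0.16 ± 0.05 (mesenchyme, adjusted p = 0.0274, kept in 13 of 16 alternatives) and 0.01 ± 0.04 (progenitor, adjusted p = 0.936). The difference between Rps4l and Rps4x was not tested. Summed over whole sections Rps4l was even, at 44.0 to 79.3 CPM.

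Rpl36al, a paralog of Rpl36a, rose in liver-rich pixels. It had 431 against 353 CPM and 660 against 467 CPM in the 2 E11 libraries at 25 µm, 562 against 365 at 10 µm and 381 against 261 at E12. It was higher in 4 of 4 libraries (0.64 ± 0.11 in level, edgeR adjusted p = 0.00131; 0.40 ± 0.11 relative to the set, adjusted p = 0.0217, kept in 5 of 8 alternatives). The call relative to the set was lost without E11 at 25 µm replicate 2, E11 at 10 µm replicate 2 or the E12 library (adjusted p = 0.0925, 0.0563 and 0.0511). Its parent Rpl36a did not pass in liver-rich pixels (0.23 ± 0.09, adjusted p = 0.0751), and the difference between the 2 genes was not tested. In mesenchyme-rich pixels Rpl36al fell (-0.26 ± 0.09 in level, edgeR adjusted p = 0.0426), a call kept in 8 of 16 alternatives. It was lost with the top 5% of pixels, against depth-matched pixels, and without the E10 library at 25 µm, any E11 library or the E12 library (adjusted p = 0.0553 to 0.169).

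The remaining paralogs gave fewer calls. Rps27l, a p53 target related to Rps27, had 172 to 536 CPM by library and rose in liver-rich pixels (0.37 ± 0.11 in level, edgeR adjusted p = 0.0295). That call was kept in 4 of 9 alternatives: it was lost with no filter (adjusted p = 0.259), against depth-matched pixels (0.112) and without E11 at 25 µm replicate 1 (0.104) or 2 (0.226) or E11 at 10 µm replicate 2 (0.0568). Rpl22l1, the paralog of Rpl22, had 54.3 to 368 CPM by library and fell in neuron-rich pixels (-0.24 ± 0.08, adjusted p = 0.0208), as did Rpl22 (-0.23 ± 0.05, adjusted p = 0.00044). Rpl7l1, related to Rpl7, had 74.2 to 145 CPM and fell in neuron-rich pixels (-0.30 ± 0.10, adjusted p = 0.0206), where Rpl7 did not pass (-0.08 ± 0.06, adjusted p = 0.354). The calls of Rpl22l1 and Rpl7l1 were kept in 10 of 15 alternatives each, and both were lost against depth-matched pixels and without E10 at 50 µm replicate 1 or 3 or E11 at 25 µm replicate 2. Rpl22l1 was also lost without E10 at 50 µm replicate 2, and Rpl7l1 without the E12 library. Rpl10l and Rpl39l, known from the testis, had 0 to 5 and 0 to 38 counts by library, with 30 and 38 of the Rpl39l counts in E10 at 50 µm replicate 1 and in E12. Rps19bp1 had 30.7 to 59.8 CPM and passed in no comparison by edgeR.

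Between groups of libraries few members moved, and the spread between libraries was wide. The biological coefficient of variation over genes was 31.8% with 5 residual degrees of freedom, and on simulated counts for E11 against E10 at 10 µm this design recovered 60% of 4-fold but 3% of 2-fold changes. Of the calls on those simulated counts 8.70% were false. For E11 against E10 at 25 µm 62 of 77 core genes lay above 0 (median log2 0.73 against 0.08 over all genes), but none passed by edgeR, where 0.455% of all 18233 genes did. An unadjusted p under 0.05 was reached by 21 core genes, 7 passed by DESeq2, and 5 passed with no filter on low counts. For 10 against 50 µm at E10 the median was 0.52 against -0.03, with none passing by edgeR (20 at an unadjusted p under 0.05, 2 by DESeq2; 0.11% of all genes passed). For 10 against 25 µm at E11 none passed (2 at an unadjusted p under 0.05, 0 by DESeq2; 2.07% of all genes) and the median was -0.10 against -0.03.

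Rpl29 was the core gene that did pass, and it fell with stage. It encodes a large subunit protein found in eukaryotes. The E10 libraries had 269, 337 and 292 CPM at 50 µm, 220.0 at 25 µm, and 461 and 558 at 10 µm. The E11 libraries had 136 and 91.2 CPM at 25 µm and 197 and 184 at 10 µm, and the E12 library had 46.2. Every E11 library lay below every E10 library, and E12 below all, an order that changed with -ps counts added, as given below. The 12.1-fold range was the widest of the 77 core genes.

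At 10 µm Rpl29 fell by 1.44 on the log2 scale from E10 to E11 (SE 0.32, edgeR adjusted p = 0.0295), the 1 core gene called there, where 0.773% of all genes fell. At 50 µm it fell by 2.75 from E10 to E12 (SE 0.43, adjusted p = 0.0067), again the 1 core gene called, where 0.214% of all genes fell. At 25 µm the change of -0.74 ± 0.38 did not pass (adjusted p = 0.407). Relative to the set the values were -1.56 ± 0.40 at 10 µm (adjusted p = 0.0168; 3.64% of all genes passed in either direction) and -2.63 ± 0.53 for E12 (adjusted p = 0.00179; 3.25%). Between tissues within a section Rpl29 was not called: it passed in the level fit of none of the 6 pixel sets by edgeR.

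Near copies touch both of these calls, and adding them back lost the first. With named -ps counts added to their parents, Rpl29 read 480 and 587 CPM in the E10 libraries at 10 µm and 276 and 276 in E11, a fall relative to the set of 1.17 that no longer passed (adjusted p = 0.091). The E10 library at 25 µm then read 229.6 CPM, below both E11 libraries at 10 µm, so E10 and E11 overlapped. The E12 library stayed lowest, at 66.6 CPM against 282 to 345 in E10 at 50 µm. Of these sums, named -ps counts made up 20.5 CPM at E12 and 8.22 to 12.5 CPM in E10 at 50 µm. Only copies with a -ps name were added. Whether the fall at E12 follows the transcripts or read assignment was not tested. The call relative to the set at 10 µm was also lost when any of its 4 libraries was left out, the call in level likewise and without E10 at 50 µm replicate 3, and the call for E12 held in 13 of 13 alternatives, none of which can leave out the 1 library at that stage, assumed to vary like the others.

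Rps3a3, the retrocopy printed above, went the other way. The E10 libraries had 28.6, 12.5 and 14.8 CPM at 50 µm, 23.7 at 25 µm and 23.3 and 46.2 at 10 µm. The E11 libraries had 22.9 and 24.0 at 25 µm but 105 and 114 at 10 µm, and the E12 library had 360. Among the summed counts of Rps3a1, Rps3a2 and Rps3a3 it took 1.23% to 2.21% at E10, 6.09% and 6.16% in E11 at 10 µm and 30.9% at E12. The log2 fold change relative to the set was 4.25 ± 0.48 for E12 against E10 at 50 µm (edgeR adjusted p = 1.35e-06) and 2.26 ± 0.49 for 10 against 25 µm at E11 (adjusted p = 0.00554; 2.62% of all genes passed). The E12 arm is a single library assumed to vary like the other groups, and no alternative leaves it out. The call at E11 was lost without either library at 25 µm (adjusted p = 0.156 and 0.129).

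Its parent Rps3a1 had 605 CPM in the E12 library against 828 to 1073 in E10 at 50 µm, which did not pass (-0.63 ± 0.38, edgeR adjusted p = 0.497), and the sum of the 3 genes was 1163 CPM against 1019 to 1299. The sum at E12 was thus inside the E10 range while its division between parent and copy was not. Whether this division follows the transcripts, a sequence difference between the animals and the reference, or read assignment was not tested.

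**Figure D5:**
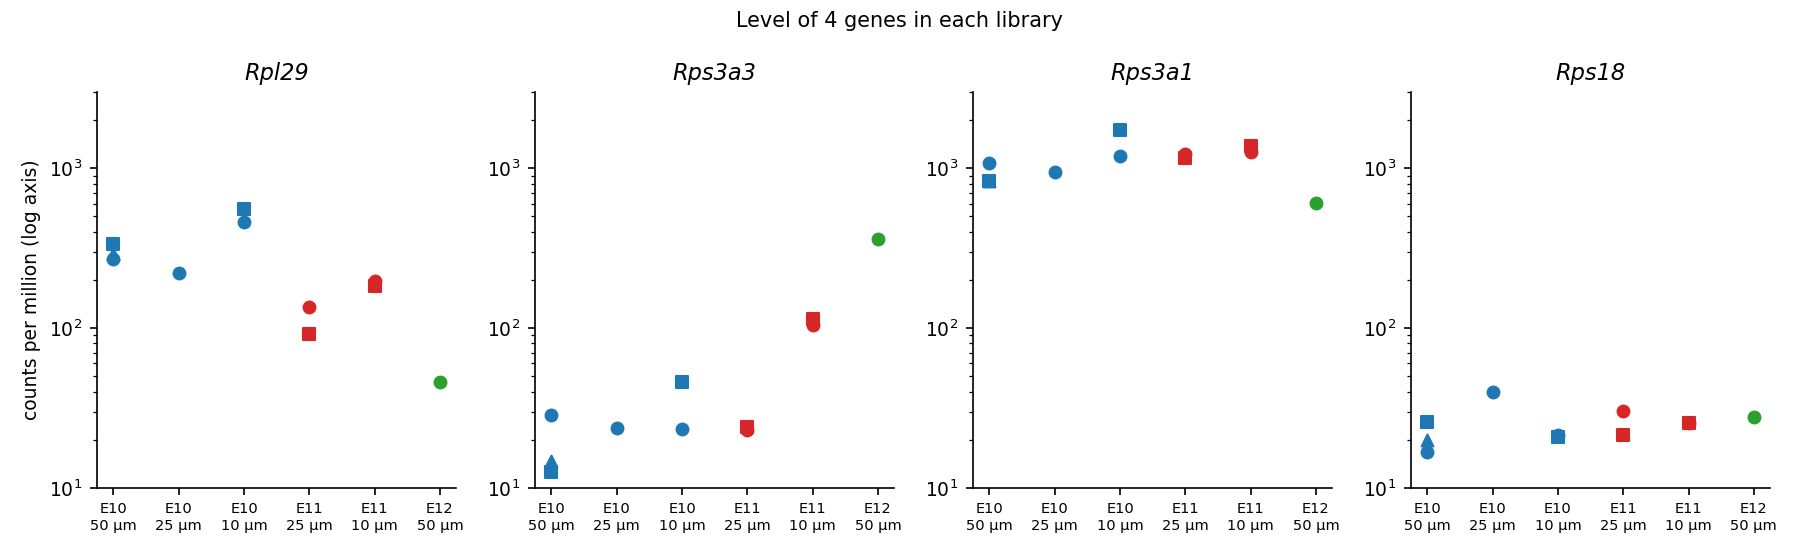
Level in CPM (log axis) of Rpl29, Rps3a3, Rps3a1 and Rps18 in each library, by stage and pixel width (horizontal axis), coloured by stage; each marker is a library. Rpl29 falls from 220.0 to 558 at E10 to 46.2 at E12 while Rps3a3 is at 360 at E12, and Rps18 stays between 16.7 and 39.7.

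Further retrocopies were higher at 10 than at 25 µm within E11. Rps12l1 had 97.9 and 69.5 CPM at 25 µm against 197 and 260 at 10 µm. Relative to the set its log2 fold change was 1.52 ± 0.41 (edgeR adjusted p = 0.032, kept in 11 of 15 alternatives). The call was lost without either library at 25 µm or replicate 2 at 10 µm. It was also lost with named pseudogenes added to their parents (adjusted p = 0.0649). Rpl6l had 132 and 130 CPM against 307 and 383 (1.44 ± 0.40, adjusted p = 0.0428, kept in 7 of 15 alternatives). Among the -ps symbols 52 of 219 tested rose in the same comparison, where 1.62% of all genes rose, and 64 of 219 in E11 against E10 at 10 µm, where 2.56% did. The core set had 0 rising in both.

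In E11 against E10 at 25 µm, Rpl26 and Rps24 fell behind the set. Rpl26, a large subunit protein near the exit tunnel, had 2342 CPM in the E10 library and 917 and 1053 in the E11 libraries (-1.68 ± 0.43 relative to the set, edgeR adjusted p = 0.0314, where 2.21% of all genes passed). The call was lost without E10 at 50 µm replicate 2 (adjusted p = 0.0539) and without E11 at 25 µm replicate 1 (0.230). Rps24, a small subunit protein, had 3331 CPM against 1382 and 1663 (-1.56 ± 0.43, edgeR adjusted p = 0.0444, kept in 9 of 13 alternatives). Its call was lost without those 2 libraries or E10 at 10 µm replicate 1. It was also lost with named pseudogenes added to their parents (-1.26 ± 0.43, adjusted p = 0.124). In level neither passed (adjusted p = 0.25 and 0.372), and the E10 arm is a single library assumed to vary like the other groups. For 10 against 50 µm at E10 no core gene departed from the set by edgeR (4 at an unadjusted p under 0.05; 0.91% of all genes passed), nor for 10 against 25 µm at E11 (1).

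At the other end of the range, Rps9 was the steadiest core gene, with 1393 to 2234 CPM (1.60-fold) over the 11 libraries. Rpl28, a large subunit protein, ranged from 487 CPM in E10 at 50 µm replicate 1 to 4489 in E11 at 25 µm replicate 1 (9.22-fold). It passed in no comparison between groups by edgeR: in E11 at 25 µm the other replicate had 1213 CPM.

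Rack1 and Fau are ribosomal proteins that the symbol rule leaves out. Rack1, the scaffold on the head of the small subunit, had 1231 to 1858 CPM by library. It rose in liver-rich pixels (0.36 ± 0.09, edgeR adjusted p = 0.0106, lost without either E11 library at 25 µm) and fell in neuron-rich (-0.17 ± 0.05, adjusted p = 0.00664) and mesenchyme-rich pixels (-0.21 ± 0.05, adjusted p = 0.00483, but 0.314 against depth-matched pixels). Fau, a small subunit protein made with a ubiquitin-like leader, had 924 to 3521 CPM and passed in the level fit of no pixel set. For E11 against E10 at 25 µm it had a log2 fold change of 1.70 that did not pass (edgeR adjusted p = 0.241).

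Other parts of the translation machinery were described with lists drawn up beside the set. Of 20 ribosome biogenesis genes (nucleolar proteins such as Npm1, Ncl and Fbl), 14 rose in liver-rich pixels (median log2 0.56), 15 fell in neuron-rich (-0.39), 9 in mesenchyme-rich (-0.27) and 4 in heart-rich pixels (-0.30). Over all genes tested, 10.3% rose in liver-rich pixels, and 18.1% fell in neuron-rich, 9.81% in mesenchyme-rich and 4.78% in heart-rich pixels. These medians lay further from 0 than those of the core set in the same pixels (0.25, -0.12, -0.12 and -0.07), a difference that was not tested. Mitochondrial ribosome genes gave 16 of 77 rising in liver-rich pixels, 11 of 75 falling in mesenchyme-rich and 6 of 77 falling in neuron-rich pixels, the last a smaller share than among all genes. Of 23 translation factors 5 rose in liver-rich, 7 fell in mesenchyme-rich, and 2 rose and 6 fell in neuron-rich pixels, where 15.3% of all genes rose. None of the 3 lists had a gene past the threshold between groups of libraries in the level fit by edgeR.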

How the data were processed

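The authors deposited, for each transcript library, raw counts per gene symbol and pixel, with no normalization; every value read was a whole number. Per the labels' protocols, cryosections were barcoded, a Nextera XT kit gave the sequencing libraries and a HiSeq instrument read them. The submitters' processing notes name CASAVA 1.8.2 and the build GRCh38, a human build, while the symbols are mouse. Aligner, annotation, use of strand, handling of duplicate molecules and of reads that fit several copies are not given in the sources used here. Of 16 columns under Ensembl identifiers 15 were matched to symbols. GENCODE M21 served only for positions, types, lengths and the transcript sequences aligned between near copies.

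A pixel counted as tissue when its total reached 0.1 of the library's 95th percentile. Their counts were summed per library for the group comparisons, with all 11 libraries in 1 fit, and per library and pixel set for the tissue comparisons. Tests used edgeR 4.0.16 (quasi-likelihood, robust, filterByExpr) in R 4.3.3, with DESeq2 1.42.0 as an alternative. Other alternatives were RLE size factors, no filter, all pixels, named pseudogenes added to parents, the top 5% of pixels, depth-matched comparison pixels, and leaving out each library; 4 more on the share difference were chosen after seeing the data. On simulated counts the neuron-rich fit recovered 98% of 2-fold changes, and 7.04% of its calls were false. Changes as small as those reported for single members in neuron-rich pixels were not simulated. The members and lists were chosen with earlier results of these data known.

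Named are up to 3 members per direction and comparison with the largest change relative to the set among those past 0.05, all paralogs with their parents, Rps19bp1, Fau, Rack1, and the 3 members highest and lowest in Moran's I. Some genes this rule names are not reported here. The parts on the widest and narrowest ranges and the largest level changes were chosen after their values were seen. The 4 antibody libraries hold no member and were not analysed here.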

Additional observations from a re-analysis of the deposited data

Results flagged for a closer look

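The share of the core set in liver-rich against comparison pixels went opposite ways at 2 stages: it was 0.980 to 2.49 points higher in the 3 E11 libraries and it differed by -0.806 points in the E12 library. The difference between the stages was not tested. The red cell list took 18.9% of counts in the liver-rich pixels of the E12 library, and without it that library read 0.787 points higher.

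Rpl13 relative to the set in neuron-rich pixels was below 0 in the 6 E10 libraries (log2 -0.27 to -0.01), above 0 in the 3 E11 libraries (0.01 to 0.07, mean 0.0504) and below 0 in the E12 library (-0.25). Neither difference, E10 against E11 or E11 against E12, was tested, and E12 is a single library.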

How the results depend on the processing

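Core genes called changed with these settings. With named pseudogenes added to their parents, E11 against E10 at 10 µm gave 0 in level and 0 against the set, E11 against E10 at 25 µm 1 against the set, heart-rich pixels 1 in each fit and neural progenitor-rich pixels 4 against the set. DESeq2 gave 7 for E11 against E10 at 25 µm and 2 for 10 against 50 µm at E10, and RLE size factors gave 1 for heart-rich pixels. With no filter on low counts the counts in level were 5 for E11 against E10 at 25 µm, 1 for 10 against 50 µm, 2 for blood-rich (both lower, where 9 were higher), 11 for heart-rich, 5 for liver-rich, 71 for neuron-rich, 28 for neural progenitor-rich and 75 for mesenchyme-rich pixels. Against the set they were 2 for blood-rich, 5 for neuron-rich and 1 for progenitor-rich pixels. That setting moved the median of all genes to between -0.35 (mesenchyme-rich) and -0.20 (blood-rich) in the 6 pixel sets. With the top 5% of pixels, blood-rich gave 4 in level, and liver-rich 2, neuron-rich 3 and progenitor-rich 0 against the set. With depth-matched pixels, liver-rich gave 15 and mesenchyme-rich 1 in level, and blood-rich 2, progenitor-rich 0 and mesenchyme-rich 1 against the set. The cause was not tested.

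Leaving out 1 library at a time gave 0 to 1 core genes in level and 0 to 1 against the set for E11 against E10 at 10 µm, and 0 to 3 against the set at 25 µm. In level it gave 5 to 12 for blood-rich, 0 to 1 for heart-rich, 3 to 34 for liver-rich, 31 to 43 for neuron-rich, 1 to 8 for progenitor-rich and 12 to 21 for mesenchyme-rich pixels. Against the set it gave 3 to 6, 0 to 1, 1 to 2, 3 to 11, 0 to 3 and 3 to 6 in the same order. The other group counts did not move.

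With named pseudogenes added, the share was 13.8% in E10 at 25 µm, 15.9% in E10 at 10 µm, 18.1% in E11 at 25 µm, 18.6% in E11 at 10 µm and 11.4% at E12, and the E10 and E11 libraries then overlapped. Without mitochondrially encoded genes in the total it was 11.5% in E10 at 25 µm and 10.2% at E12, and without the red cell list 11.5% and 10.9%. The share difference in blood-rich pixels was 0.380 points without the red cell list, which is also that list's own genes. Adjusted for grid row and column it was -0.388 points in neuron-rich and 0.411 in progenitor-rich pixels. For the single genes reported, 651 values under alternatives kept direction and side of the threshold, 126 fell short of it and 4 passed newly. The replicate block could be fitted for 10 against 25 µm at E11: 0 core genes were called in both fits. The numbers share no source in the labels, and the difference of replicate 1 and 2 correlated at r = 0.054 between the 2 pixel widths across 18233 genes. Sequencing depth limits the pattern in the E10 library at 25 µm, with 843.5 counts in the median pixel, and Rps18, with 4 to 22 counts in neuron-rich pixels per library.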
